A study of Mus musculus with 15 samples.

Results

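The B lineage genes described here are 10: the transcription factors Ebf1 and Pax5, the coactivator Pou2af1, the pre-B cell receptor genes Vpreb1, Vpreb3, Igll1 and Ighm, its signalling chains Cd79a and Cd79b, and the adaptor Blnk. They were chosen with earlier results of these data known, among them the opposed moves of Ebf1 and Pou2af1. Every probe set that the platform annotation pairs with 1 of these gene symbols alone was taken, which gave 26 of the 45101 probe sets on the array. A further 5 probe sets list a member among several genes and were not used. The cells were LSK cells, bone marrow cells without lineage markers that carry Sca1 and Kit, from C57BL6 mice. All groups, wild type included, were transduced with the retrovirus MSCV-Cre-IRES-GFP, and GFP+ cells were sorted, with a medium of Stemspan, mFlt3L, mTpo and mSCF. The groups differ at Apc, which helps to hold beta-catenin low in the Wnt pathway: wt/wt (6 arrays), 15lox/15lox with a pair of floxed alleles (3), 15lox/1638N with a floxed and a hypomorphic allele (3), and 15lox/1572T with a floxed and another hypomorphic allele (3). No age of the mice is given, nor whether the arrays of a group come from separate animals, and the p-values therefore reflect the spread among these arrays alone, which may be technical.

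B cells arise from lymphoid progenitors in which Ebf1, together with E proteins, opens the B lineage programme, after which Pax5 commits the cell to it. The pre-B cell receptor pairs an immunoglobulin heavy chain of the mu class, encoded by Ighm, with a surrogate light chain made of the Vpreb and lambda5 (Igll1) proteins, and signals through Cd79a and Cd79b to kinases and the adaptor Blnk. Pou2af1 is a coactivator of the Oct transcription factors at octamer motifs. Unrearranged transcripts of Ighm are made in lymphoid progenitors before any receptor is assembled.

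Wild-type arrays 1 to 3 were shown but left out of the differences given here, since their mean lay within 0.05 of the mean of arrays 4 to 6 at 96.7% of all probe sets, against 24.0% for the 15lox/15lox mean, and all 3 of their values were equal at 18.2% of probe sets. Wild type below means arrays 4 to 6. Levels are log2 values with array medians of 6.65 to 6.84, and 3 arrays a group limit the precision of each difference. Of the 4 Apc probe sets, 1420956_at was lower than wild type in 15lox/15lox cells (-3.96) and in 15lox/1638N cells (-1.20), and in 15lox/1572T cells its difference was -0.93 (adjusted p = 0.103). Probe sets 1420957_at and 1450056_at were also lower in 15lox/15lox (-3.88 and -1.43), and 1420957_at in 15lox/1638N (-1.30). Only 1435543_at rose in 15lox/15lox, by 0.77. No Apc probe set passed in 15lox/1572T. The position of the probe sets relative to the deleted part was not used here. By Xist and Y-linked genes the wild-type arrays 4 to 6 were male-type, and 15lox/15lox arrays 2 and 3, 15lox/1638N array 3 and 15lox/1572T array 1 were female-type. The progenitor markers Kit, Cd34 and Flt3 read 11.19, 13.34 and 12.72 in wild type, and the myeloid genes Mpo and Ctsg 14.18 and 14.15.

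Few of the B lineage genes were read well above the bottom of the scale. The Y-linked genes, which female-type arrays should lack, read 3.67 to 5.61 on those arrays, and 14 of the 26 member probe sets stayed at or under 5.61 on all 12 arrays tested. These were both probe sets of Pax5 (4.75 to 5.28), 4 of the 5 of Ebf1 and 8 of the 11 of Ighm. Only 6 lay above that level on all 12 arrays: Cd79b near percentile 85 of all probe sets, a pair of Ighm probe sets near percentiles 86 and 85, Vpreb1 near percentile 67, 1420177_at of Igll1 near percentile 45 and Vpreb3 near percentile 42. The remaining 6 crossed it, among them Ebf1 1416301_a_at, Pou2af1, Blnk and Cd79a. Pax5 therefore could not be told from background on these arrays. The mature B cell genes Ms4a1 (CD20), Cr2 and Fcer2a read 4.86, 5.17 and 4.70 in wild type, inside the same range. Among the other listed mature B and plasma cell genes, Jchain, Tnfrsf17 and Derl3 also had means inside it (5.30, 5.04 and 5.36). Sdc1, Xbp1, Tnfrsf13c, Igha, Mzb1 and Prdm1 had wild-type means above it, at 12.97, 12.37, 9.85, 9.76, 6.44 and 5.84.

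**Figure D1:**
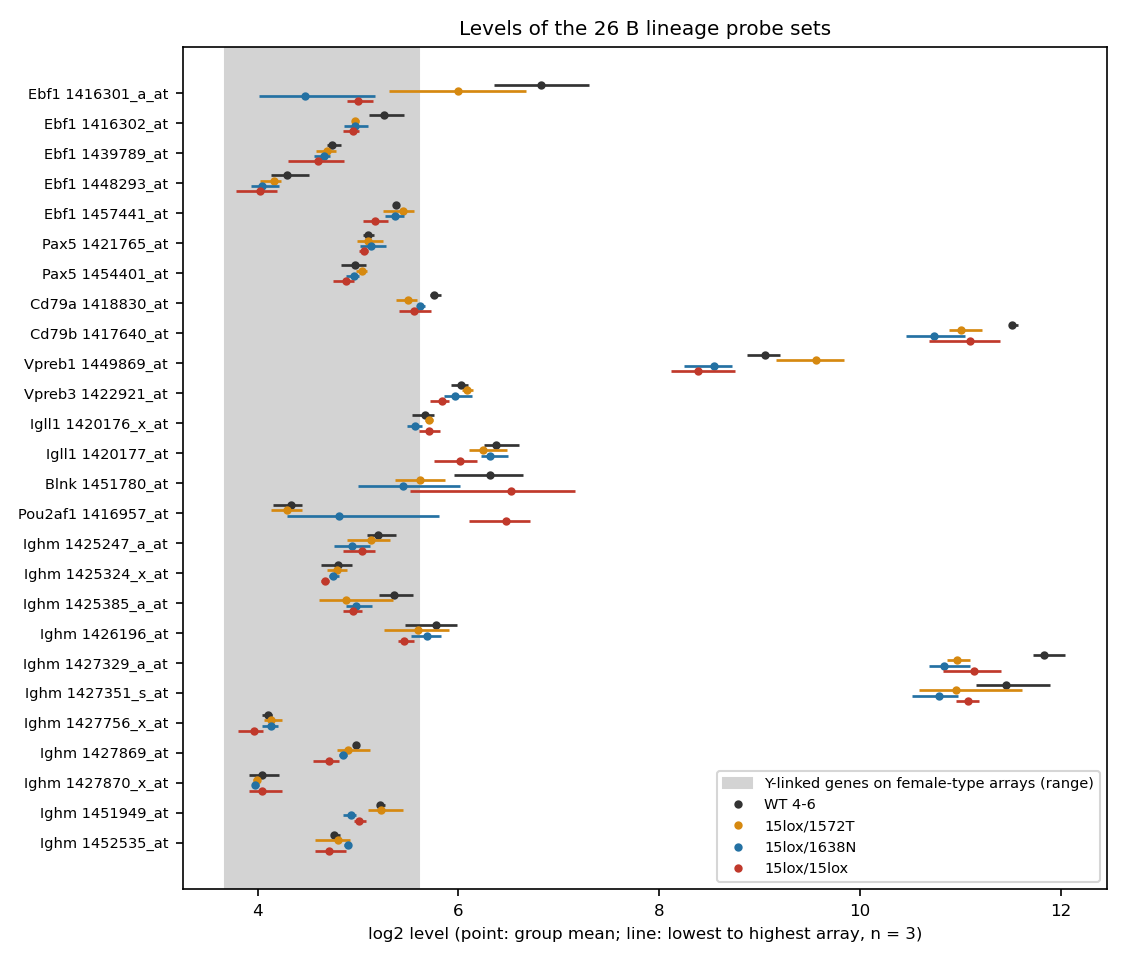
Log2 level of each of the 26 B lineage probe sets, as group mean (point) and lowest to highest array (line), n = 3 arrays a group, with the range of Y-linked genes on female-type arrays in grey (3.67 to 5.61). Cd79b, Vpreb1 and 2 Ighm probe sets lie far to the right of the grey band, and 14 probe sets lie inside it on all 12 arrays.

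Ebf1, the factor that specifies the B lineage, was lower in 15lox/1638N and 15lox/15lox cells at the probe set that reads it above background. Probe set 1416301_a_at read 6.36, 6.82 and 7.30 on the wild-type arrays, 5.31, 6.67 and 6.01 in 15lox/1572T, 5.17, 4.01 and 4.24 in 15lox/1638N, and 4.89, 5.15 and 4.94 in 15lox/15lox. All 6 arrays of the last 2 groups lay below every wild-type array, and 15lox/1572T overlapped wild type. Ebf1 fell by 2.35 ± 0.37 (SE) or 5.10-fold in 15lox/1638N (limma, adjusted p = 0.0129) and by 1.83 ± 0.37 or 3.55-fold in 15lox/15lox (adjusted p = 0.0345). The difference in 15lox/1572T was -0.83 ± 0.37 (adjusted p = 0.716). The low mutant values lie within the range of the Y-linked genes on female-type arrays, where background adds to the signal. In 15lox/15lox the call ended with array type as a covariate (adjusted p = 0.212) and without any one of the wild-type arrays 4, 5 and 6, the 15lox/15lox arrays 1, 2 and 3 or 15lox/1638N array 3 (adjusted p 0.0518 to 0.144), and in 15lox/1638N when array 2 of that group or wild-type array 5 or 6 was left out (adjusted p 0.0535 to 0.0594).

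The other 4 probe sets of Ebf1 read 3.78 to 5.56 on all 12 arrays and none passed the test. The one nearest to a call, 1416302_at, read 5.21, 5.46 and 5.11 in wild type and 4.85 to 5.09 on the mutant arrays, which did not overlap. Its difference was -0.31 ± 0.11 (SE) in 15lox/15lox (adjusted p = 0.302), -0.29 in 15lox/1638N and -0.29 in 15lox/1572T. Pax5, the commitment factor that acts after Ebf1, read 5.10 ± 0.05 in wild type and 5.06 ± 0.05 in 15lox/15lox (SD, n = 3) at 1421765_at, a difference of -0.05 (adjusted p = 0.930). At this level a fall of Pax5 was not detectable.

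Pou2af1 moved the other way from Ebf1 in 15lox/15lox cells. Probe set 1416957_at read 4.15, 4.39 and 4.45 in wild type and 6.71, 6.11 and 6.59 in 15lox/15lox, and the groups did not overlap. Pou2af1 rose by 2.14 ± 0.34 (SE) or 4.41-fold (limma, adjusted p = 0.00701), from a wild-type level inside the range of the Y-linked genes on female-type arrays, where background adds to the signal. With array type as a covariate the difference was 1.89 (adjusted p = 0.0596). In 15lox/1638N cells 2 arrays read 4.33 and 4.29, at the wild-type level, and array 3 read 5.80, so that the mean difference of 0.48 did not pass (adjusted p = 0.521). In 15lox/1572T the values of 4.30, 4.13 and 4.44 overlapped wild type. The opposed pair was therefore measured in 15lox/15lox, whereas Ebf1 had its lowest mean in 15lox/1638N with Pou2af1 at the wild-type level on 2 of 3 arrays. Pou2af1 was higher in 15lox/15lox than in 15lox/1572T by 2.18 ± 0.34 (SE), a call that held in 21 of 21 alternative fits that tested it (adjusted p = 0.00793), and the difference from 15lox/1638N, 1.66 ± 0.34, missed the threshold (adjusted p = 0.107). The difference in Ebf1 between 15lox/15lox and 15lox/1638N was 0.52, with a 95% interval of -0.29 to 1.33 (adjusted p = 0.683).

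The 250 bases before the annotated start of Ebf1 and Pou2af1, which passed against wild type, and of Vpreb1 and Igll1, which encode the surrogate light chain, are shown so that the region next to the start can be read beside the values. They come from RefSeq (build GRCm38.p6), and 8 of the 10 members have an entry, which leaves out Cd79b and Ighm. For Ebf1 the window of the first annotated start, chr11:44617850-44618099 on the plus strand, is given; for Pou2af1 chr9:51213440-51213689, plus strand; for Vpreb1 chr16:16869256-16869505, minus strand; and for Igll1 chr16:16863986-16864235, minus strand. Capitals mark the E box CAGGTG, or CACCTG on the other strand, which E proteins bind.
Ebf1: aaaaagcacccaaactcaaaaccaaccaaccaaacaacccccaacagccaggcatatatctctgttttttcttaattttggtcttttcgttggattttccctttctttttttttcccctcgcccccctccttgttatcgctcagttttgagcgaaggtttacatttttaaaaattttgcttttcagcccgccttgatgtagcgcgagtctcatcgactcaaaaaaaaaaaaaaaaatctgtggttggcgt
Pou2af1: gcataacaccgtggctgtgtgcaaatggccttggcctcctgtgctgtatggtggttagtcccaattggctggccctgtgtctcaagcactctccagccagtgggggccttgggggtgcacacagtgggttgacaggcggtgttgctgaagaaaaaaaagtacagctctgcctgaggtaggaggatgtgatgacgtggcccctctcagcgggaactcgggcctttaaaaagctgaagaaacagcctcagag
Vpreb1: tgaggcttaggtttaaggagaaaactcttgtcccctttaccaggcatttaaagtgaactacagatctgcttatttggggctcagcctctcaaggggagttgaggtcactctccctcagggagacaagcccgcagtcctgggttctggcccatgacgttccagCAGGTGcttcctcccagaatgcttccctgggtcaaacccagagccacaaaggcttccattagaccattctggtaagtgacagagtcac
Igll1: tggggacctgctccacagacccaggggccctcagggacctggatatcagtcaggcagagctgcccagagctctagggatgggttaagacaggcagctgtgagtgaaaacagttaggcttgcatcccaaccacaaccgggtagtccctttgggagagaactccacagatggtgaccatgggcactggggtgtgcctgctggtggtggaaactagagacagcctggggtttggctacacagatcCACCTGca

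Each of the 9 member windows was searched on both strands for 4 motifs: the Ebf1 palindrome (TCCC and GGGA with 2 bases between), the octamer ATTTGCAT, the E box CAGGTG and the Tcf/Lef core CTTTGAT, the factors through which beta-catenin acts on DNA. No 2 of these matches overlapped. The E box was found upstream of Vpreb1, Igll1, Cd79a and Blnk and is present in 17.2% of 32851 windows of the same length. The octamer was found upstream of Vpreb3 (from position -45 relative to the start) and Blnk (from position -130), against 1.60% of all windows. The palindrome and the Tcf/Lef core, present in 0.779% and 3.21% of all windows, matched in none of the 9, which says only that these letters are not in these windows.

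The surrogate light chain gene Vpreb1 differed between mutant groups, being lower in 15lox/15lox than in 15lox/1572T. Probe set 1449869_at, which may also read the closely related Vpreb2, gave 9.10, 8.87 and 9.20 in wild type, 9.84, 9.70 and 9.16 in 15lox/1572T, 8.66, 8.25 and 8.72 in 15lox/1638N and 8.29, 8.12 and 8.76 in 15lox/15lox. Both of the latter groups lay below all 3 wild-type arrays, and 15lox/1572T overlapped them from above. None of the 3 differences from wild type passed: -0.67 ± 0.21 (SE) in 15lox/15lox (adjusted p = 0.239), -0.51 in 15lox/1638N (adjusted p = 0.266) and 0.51 in 15lox/1572T (adjusted p = 0.678). Between the mutants, Vpreb1 was 2.26-fold lower in 15lox/15lox than in 15lox/1572T (-1.18 ± 0.21, adjusted p = 0.0214), a call that ended in a fit of these 2 groups alone (adjusted p = 0.186), with a fixed replicate block (adjusted p = 0.118), and without 15lox/15lox array 1 or 2 or 15lox/1572T array 1 or 2 (adjusted p 0.0881 to 0.105). Against 15lox/1572T the 15lox/1638N difference was -1.02 ± 0.21 (adjusted p = 0.160).

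Igll1, the lambda5 partner of Vpreb1, and Vpreb3, a related gene, had smaller differences. Igll1 at 1420177_at read 6.25, 6.25 and 6.60 in wild type and 6.18, 5.76 and 6.10 in 15lox/15lox, with no overlap and a difference of -0.36 ± 0.15 (SE) that did not pass (adjusted p = 0.458). Its other probe set, 1420176_x_at, read 5.48 to 5.81 on all 12 arrays. Vpreb3 ran from 5.71 to 6.15 over the 12 arrays, and its largest difference from wild type, -0.20 in 15lox/15lox, did not pass (adjusted p = 0.563).

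Ighm, which encodes the mu heavy chain constant region, was lower in 15lox/1638N at 1 of the 2 probe sets that read it high. Probe set 1427329_a_at read 11.73, 12.04 and 11.72 in wild type, 10.87, 10.92 and 11.09 in 15lox/1572T, 10.69, 10.72 and 11.09 in 15lox/1638N and 11.40, 10.83 and 11.18 in 15lox/15lox. All 9 mutant arrays lay below the 3 wild-type arrays. The fall of 1.00 ± 0.16 (SE), or 2.00-fold, in 15lox/1638N passed the test (limma, adjusted p = 0.0149). Leaving out wild-type array 4, wild-type array 5, or array 1 or 2 of the 15lox/1638N group ended the call (adjusted p 0.0558 to 0.0721). The differences of -0.69 ± 0.16 in 15lox/15lox (adjusted p = 0.0731) and -0.87 ± 0.16 in 15lox/1572T (adjusted p = 0.214) did not pass.

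The second high probe set of Ighm, 1427351_s_at, read 11.33, 11.89 and 11.15 in wild type and 10.52, 10.97 and 10.86 in 15lox/1638N, again without overlap, at -0.67 ± 0.26 (SE) and adjusted p = 0.244. In 15lox/15lox it read 11.18, 10.95 and 11.08, which overlapped wild type, at -0.39 and adjusted p = 0.697. In 15lox/1572T it read 10.59, 10.67 and 11.61, with array 3 above 2 of the 3 wild-type arrays, at -0.50 and adjusted p = 0.775. Unlike the first probe set, it thus overlapped wild type in both of these groups. The other 9 Ighm probe sets read 3.81 to 5.98 and none passed. Probes of the kind marked _s_at or _x_at can read related transcripts, so the probe sets of Ighm need not measure the same RNA.

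Cd79b, a signalling chain of the receptor, read lower on all 9 mutant arrays than on the wild-type arrays, without a call. Probe set 1417640_at read 11.48, 11.48 and 11.57 in wild type, 10.92, 11.21 and 10.88 in 15lox/1572T, 10.70, 10.46 and 11.04 in 15lox/1638N, and 11.21, 10.69 and 11.39 in 15lox/15lox. The difference was -0.78 ± 0.19 (SE) in 15lox/1638N (adjusted p = 0.0769), -0.51 in 15lox/1572T (adjusted p = 0.629) and -0.41 in 15lox/15lox (adjusted p = 0.488). Its partner Cd79a read 5.72, 5.83 and 5.72 in wild type and 5.38 to 5.73 over the mutant arrays, close to the Y-linked range, with differences of -0.26 to -0.14. None of the 3 passed.

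Blnk, the adaptor that links the receptor's kinases to phospholipase C, spread widely within 15lox/15lox. Probe set 1451780_at read 5.96, 6.34 and 6.64 in wild type, 7.16, 5.52 and 6.89 in 15lox/15lox, 5.00, 5.33 and 6.01 in 15lox/1638N and 5.87, 5.61 and 5.37 in 15lox/1572T. In 15lox/15lox 2 arrays lay above all wild-type arrays and 1 below them, and the difference of 0.21 ± 0.39 (SE) did not pass (adjusted p = 0.922). The differences of -0.87 in 15lox/1638N (adjusted p = 0.308) and -0.70 in 15lox/1572T (adjusted p = 0.786) did not pass either.

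**Figure D2:**
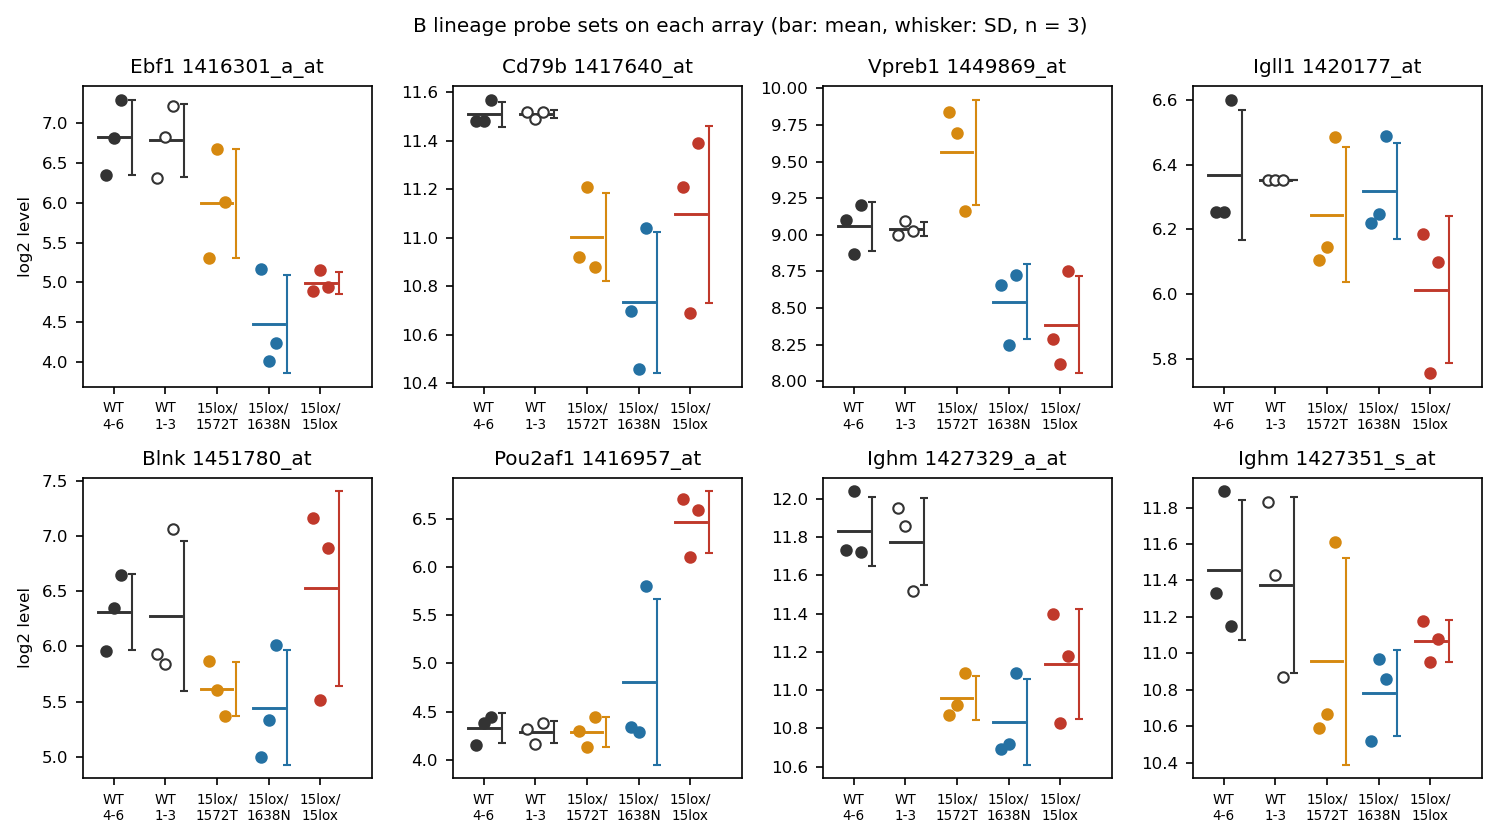
Log2 level on each array for 8 B lineage probe sets, with the group mean (bar) and SD (whisker), n = 3; open circles are wild-type arrays 1 to 3, which enter none of the differences given here, and the vertical axes differ. Ebf1 falls to 4.01 to 5.17 in 15lox/1638N and 15lox/15lox, Pou2af1 rises to 6.11 to 6.71 in 15lox/15lox, and Vpreb1 is highest in 15lox/1572T.

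Over the whole set, 2 of the 26 member probe sets were called in 15lox/15lox, 1 higher (Pou2af1) and 1 lower (Ebf1), where 1.49% of all probe sets were called, 1.16% higher and 0.333% lower. In 15lox/1638N 2 were called, both lower (Ebf1 and Ighm), against 1.38% of all probe sets, 0.548% higher and 0.834% lower. In 15lox/1572T limma called 0 members against 0.0288% of all (0.0111% higher, 0.0177% lower), and 7 had an unadjusted p under 0.05, against 6.84% of all probe sets. Between mutants, 2 members were called in 15lox/15lox against 15lox/1572T, Vpreb1 lower and Pou2af1 higher (1.00% of all, 0.0510% lower and 0.949% higher), 0 against 15lox/1638N (0.186% of all, with 2 members at an unadjusted p under 0.05 beside 8.67% of all) and 0 in 15lox/1638N against 15lox/1572T (0.171% of all, with 3 at an unadjusted p under 0.05 beside 7.72% of all). The median log2 difference of the members from wild type was -0.20 in 15lox/15lox, -0.11 in 15lox/1638N and -0.06 in 15lox/1572T, beside -0.03, 0.00 and -0.01 over all probe sets. Below zero were 22, 22 and 18 of the 26, and the share of all probe sets below zero was not counted. These 26 are not separate units, since 11 belong to Ighm and 5 to Ebf1. Of them 14 stayed at or under the highest Y-linked level of female-type arrays on all 12 arrays. The counts therefore cannot tell whether the genes fell together, which was not tested. The 3 comparisons share their control arrays. Since the members were chosen with earlier results of these data known, their counts beside the shares of all probe sets are a description and no test.

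**Figure D3:**
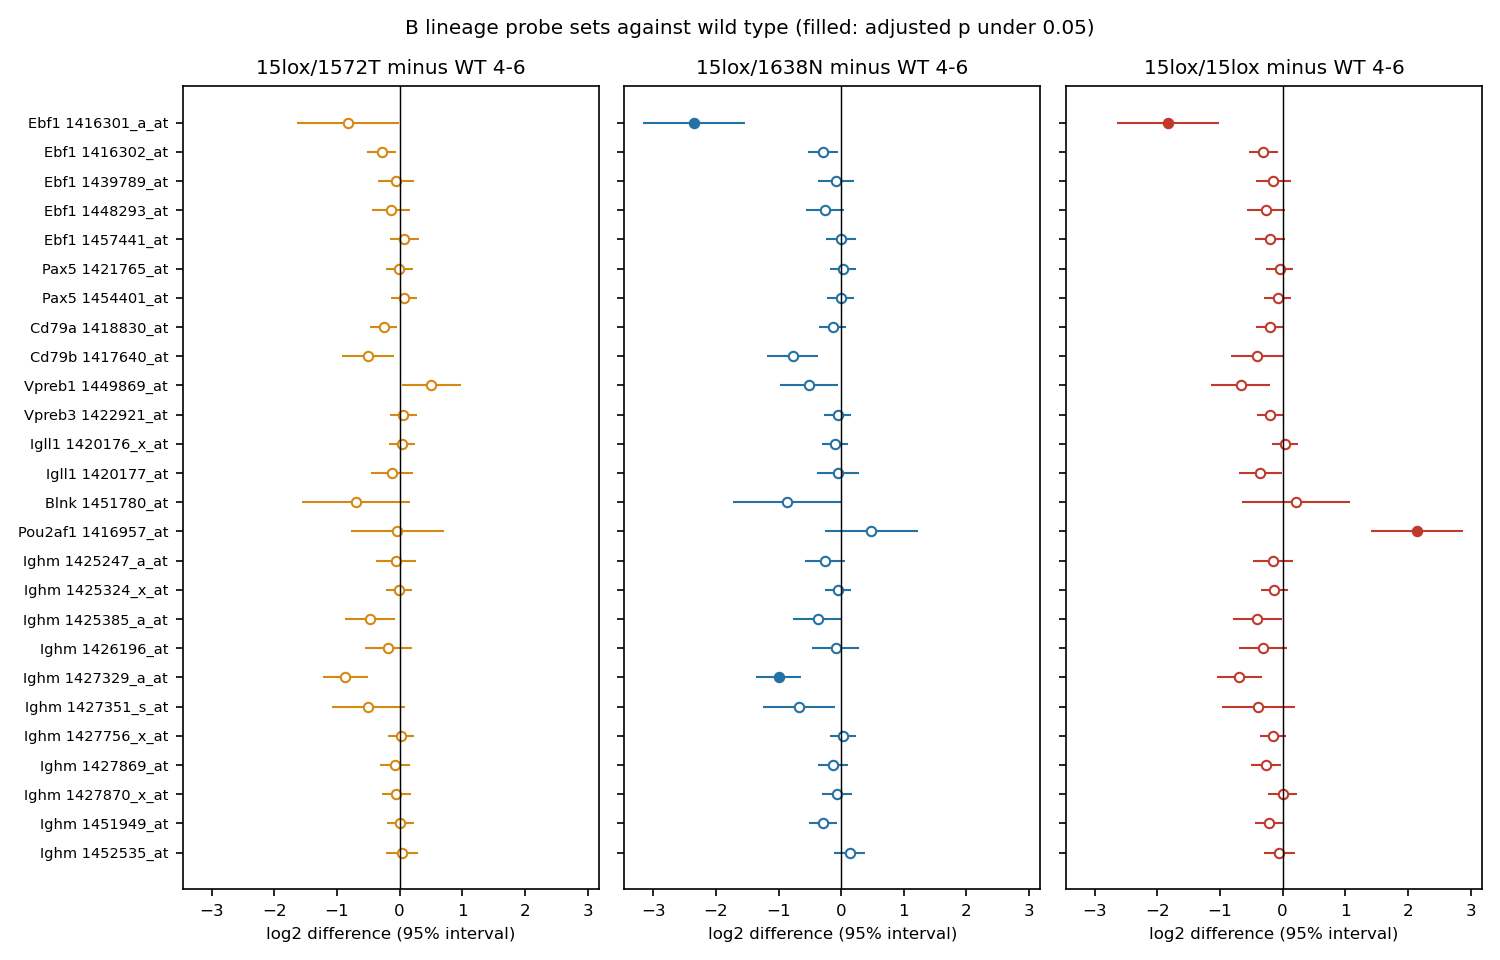
Log2 difference from wild-type arrays 4 to 6 with its 95% interval for each of the 26 B lineage probe sets in 15lox/1572T, 15lox/1638N and 15lox/15lox, n = 3 arrays a group; filled points had adjusted p under 0.05. The filled points are Ebf1 1416301_a_at in 2 panels, Ighm 1427329_a_at in 15lox/1638N and Pou2af1 in 15lox/15lox.

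The pathway around these genes was described from lists of named genes, 1 probe set a gene, of which 93 of 105 listed genes are used. Over all genes 2.11% were called in 15lox/15lox (1.60% higher, 0.506% lower), 2.04% in 15lox/1638N (0.769% higher, 1.28% lower) and 0.0495% in 15lox/1572T (0.0165% higher, 0.0330% lower). A list of a few genes is read gene by gene beside these shares. Of 19 regulators of the B lineage 2 rose in 15lox/15lox, Lef1, a nuclear partner of beta-catenin, by 3.94 ± 0.42 (SE) and Irf4, which acts in pre-B cells and plasma cells, by 3.04 ± 0.36, and 1, Lef1, rose in 15lox/1638N by 3.92 ± 0.42. In 15lox/1572T 0 passed in limma (1 at an unadjusted p under 0.05, beside 6.84% of all probe sets). A listed gene is read at its probe set of highest mean, so that share is not a matched baseline. The largest fall among the regulators was that of Spib, without a call. It differed by -1.99, -2.28 and -1.99 in 15lox/15lox, 15lox/1638N and 15lox/1572T (limma, adjusted p = 0.193, 0.0962 and 0.499). Id2 differed by -0.77, -0.87 and -0.27 (adjusted p = 0.132, 0.0708 and 0.848). The list medians were -0.09, -0.18 and -0.15, beside -0.05, -0.03 and -0.03 over all genes. The partners of Ebf1 in opening the programme did not pass: Tcf3, which encodes the E proteins E12 and E47, differed by -0.21 in 15lox/15lox and 0.48 in 15lox/1638N, and Foxo1 by -0.13 and -0.93. Tcf12, also an E protein gene, was nearest to a call, at 0.44 ± 0.10 (SE) in 15lox/15lox (limma, adjusted p = 0.053). In 15lox/1638N Tcf12 differed by 0.10 (adjusted p = 0.677).

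Of 14 genes of pre-B and B cell receptor signalling 1 fell in both groups, the Src family kinase Blk, by 1.59 ± 0.29 (SE) in 15lox/15lox (adjusted p = 0.0181) and by 1.59 ± 0.29 in 15lox/1638N (adjusted p = 0.0247); in 15lox/1572T it read -1.56 (adjusted p = 0.204). The kinases Syk and Btk read 11.79 and 12.26 in wild type and differed by at most 0.33 in size in any group. They do not stand for the list, whose medians were -0.18, -0.43 and -0.20 in 15lox/15lox, 15lox/1638N and 15lox/1572T. Over all genes the medians were -0.05, -0.03 and -0.03. Unadjusted p (limma) was under 0.05 for 3, 9 and 4 of the 14 genes in the same order, beside 4598, 7201 and 3087 of the 45101 probe sets. These counts cover all probe sets, whereas a gene of this list or the next is read at its probe set of highest mean. They are therefore not a matched baseline. In 15lox/15lox, for example, 2.11% of genes but 1.49% of probe sets had adjusted p under 0.05. Genes at an unadjusted p under 0.05 were not counted over all genes. In 15lox/1572T all 14 differences lay below zero (highest -0.03), and the share of all genes below zero was not counted. The list as a whole was not tested. Of 9 V(D)J recombination genes 0 passed in any of the 3 comparisons (limma; 2, 2 and 3 at an unadjusted p under 0.05 in 15lox/15lox, 15lox/1638N and 15lox/1572T, beside 4598, 7201 and 3087 of the 45101 probe sets), with Dntt, the terminal transferase, at 12.99 in wild type and Rag1, a recombinase subunit, at 5.71. Of 7 genes of the interleukin-7 receptor axis Il7r, its alpha chain, rose in 15lox/15lox by 4.11 ± 0.50 (SE, limma, adjusted p = 0.00127). It differed by 2.35 in 15lox/1638N, which just missed the threshold (adjusted p = 0.05 after rounding). In 15lox/1572T Il7r differed by 1.47, which did not pass (adjusted p = 0.595).

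Markers of other cells also differed between the groups. Of 7 genes of plasmacytoid dendritic cells 2 fell in 15lox/15lox and 2 in 15lox/1638N, the chemokine receptor Ccr9 (-2.68 and -2.92) and Pacsin1 (-1.21 and -1.43), and Pacsin1 also fell by 1.23 in 15lox/1572T (adjusted p = 0.0352). The mean of the 7 genes ran from 9.95 to 10.31 on the wild-type arrays, 8.95 to 9.45 in 15lox/15lox, 8.87 to 9.10 in 15lox/1638N and up to 9.62 in 15lox/1572T, with no overlap between wild type and any mutant group. Such a separation was not particular to this list. The means of the receptor signalling, mature B and plasma cell, and T cell lists also lay below wild type on every mutant array. That of the myeloid list lay above wild type on every mutant array. The median differences of the myeloid list were only 0.01, 0.05 and 0.14 in 15lox/15lox, 15lox/1638N and 15lox/1572T. Its largest rise in each group was that of Cd14, given below, and the list mean without Cd14 was not computed. The myeloid mean therefore does not show that these genes rose together. The remaining lists overlapped wild type in some of the mutant groups. Siglech, a defining marker of these cells, was 7.45 ± 0.83 in wild type (SD, n = 3) and differed by -1.10, -1.29 and -0.97 in 15lox/15lox, 15lox/1638N and 15lox/1572T, none of which passed, and Tcf4 stayed between -0.13 and 0.00. Of 12 mature B and plasma cell genes Sdc1, syndecan 1, fell in 15lox/15lox (-1.34) and 15lox/1638N (-1.80), and Igha, a heavy chain constant region, fell in 15lox/1638N (-4.22). Sdc1 read -1.17 in 15lox/1572T, which did not pass (limma, adjusted p = 0.338). Igha read -3.30 in 15lox/15lox (adjusted p = 0.0674) and -3.07 in 15lox/1572T (adjusted p = 0.387). Its SD was 1.00 in wild type, 1.16 in 15lox/15lox, 0.19 in 15lox/1638N and 1.53 in 15lox/1572T (n = 3). Of 10 T cell genes Cd3g fell in 15lox/15lox, 15lox/1638N and 15lox/1572T (-1.28, -1.45 and -1.26) and the adaptor Lat in the first 2 (-0.87 and -1.01). Of 7 LSK and progenitor genes Ly6d, which marks B-biased lymphoid progenitors, fell by 2.87 in 15lox/1638N and read -2.45 in 15lox/15lox (adjusted p = 0.0775). Of 8 myeloid genes Cd14 rose by 2.45, 3.56 and 2.53 in the same order, and Prtn3 by 0.42 in 15lox/1638N. In bulk samples fewer cells of a type and less RNA per cell cannot be told apart, and the part of these markers in the values of Ebf1, Ighm and Cd79b was not tested.

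**Figure D4:**
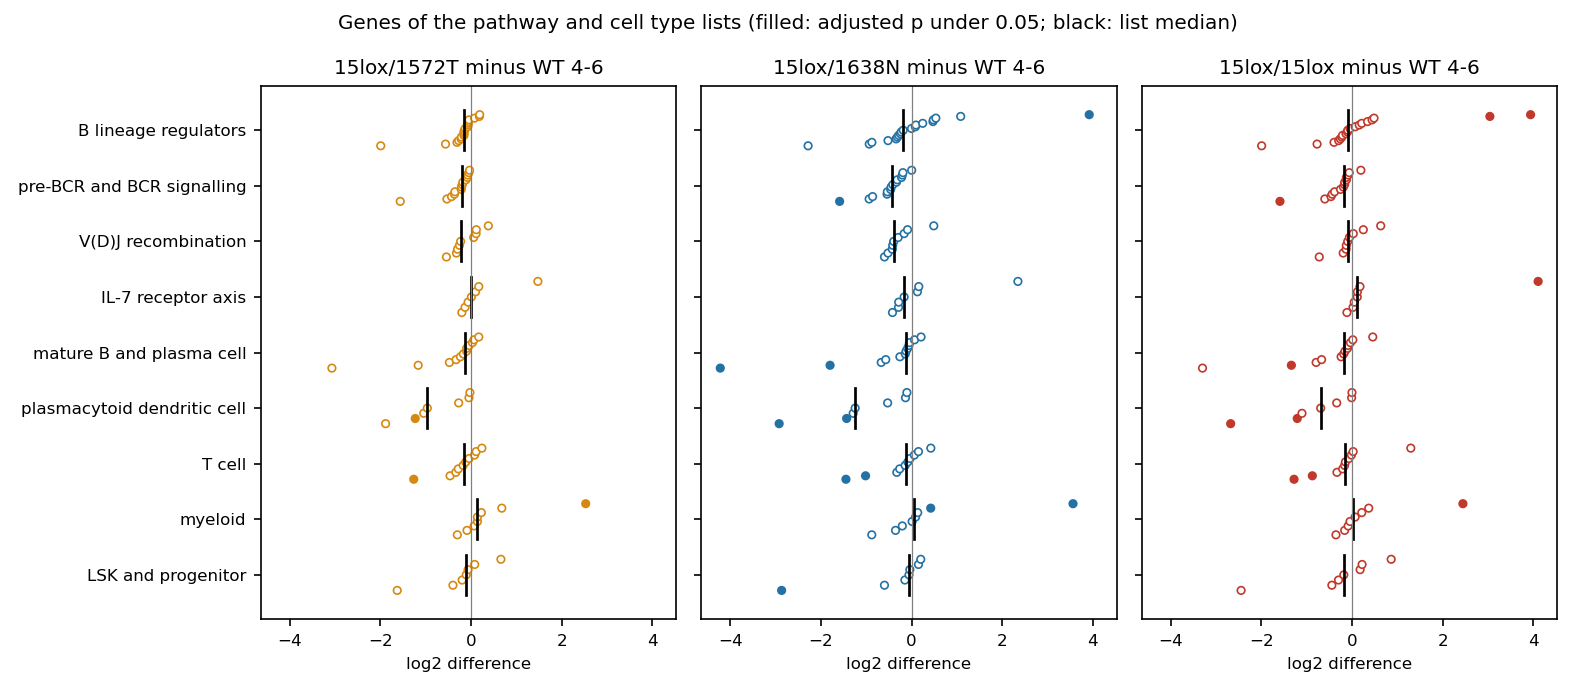
Log2 difference from wild-type arrays 4 to 6 for each gene (point) of the pathway and cell type lists, n = 3 arrays a group, filled where adjusted p was under 0.05 and with the list median as a black line. The plasmacytoid dendritic cell list has medians of -0.97, -1.24 and -0.69 in 15lox/1572T, 15lox/1638N and 15lox/15lox, beside -0.03, -0.03 and -0.05 over all genes.

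The genes outside the members whose levels over the 12 arrays were most like Ebf1 1416301_a_at were Rap1gap2 (Pearson r = 0.946), Lat (0.932), Kank2 (0.912), Pip5k1c (0.910) and 9930012K11Rik (0.903). Those most like Pou2af1 were Unc45b (0.973), Prss23 (0.972), Thbs1 (0.968), Sun3 (0.966) and Nrep (0.965). Each r runs over 12 arrays of 4 genotypes that share their controls and is a description. In 15lox/15lox, 15lox/1638N and 15lox/1572T, Rap1gap2 differed from wild type by -1.54, -1.46 and -0.63, and Unc45b by 3.78, 1.07 and 0.12.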

How the data were processed

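Expression was measured on 15 arrays of 4 Apc genotypes. The values as deposited by the authors are on a log2 scale, judged from their range; RMA and mm9 are named in the submitters' processing notes without role or version, and no other step is given in the sources used here. Probe sets were named through the platform annotation. All 45101 probe sets entered a linear model (limma 3.58.1, R 4.3.3, with empirical Bayes moderation) on 12 arrays, wild-type 4 to 6 and the 9 mutant arrays, with 8 residual degrees of freedom. Tests were two-sided and p-values had Benjamini-Hochberg adjustment over all probe sets in each comparison, with a threshold of 0.05. No filter or further normalization was applied, and the fit was tested on simulated data. Named were all members, up to 4 called genes a list and the 5 genes most like Ebf1 and Pou2af1. Other genes of the lists (Kit, Cd34, Flt3, Mpo, Ctsg, Ms4a1, Cr2, Fcer2a, Jchain, Tnfrsf17, Derl3, Xbp1, Tnfrsf13c, Mzb1, Prdm1, Tcf3, Tcf12, Foxo1, Spib, Id2, Syk, Btk, Dntt, Rag1, Siglech and Tcf4) were named after their values were seen. A listed gene is read at its probe set of highest mean. Array type rests on Xist and 3 Y-linked genes. Members and lists were chosen with earlier results of these data known. Alternatives covered the control arrays, the arrays fitted, a filter on low levels, 1 probe set per gene, normalization, eBayes options, array weights, array type as a covariate, the replicate number as a block, and each array left out.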

Additional observations from a re-analysis of the deposited data

Results flagged for a closer look

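Among the 26 probe sets checked over the 6 wild-type arrays, 3 had 1 array far from the others. Array 6 was lowest for Pax5 1454401_at (4.83, against 5.00 for the nearest, a gap of 0.676 of the range) and highest for Igll1 1420177_at (6.60 against 6.35, a gap of 0.713 of the range). Array 4 was lowest for Ighm 1425324_x_at (4.63 against 4.82, a gap of 0.630 of the range). All 3 of these probe sets are among the 7 of 26 at which wild-type arrays 1 to 3 hold 3 equal values, so the 6 values are not independent and the usual rate of about 1 in 20 groups by chance does not apply.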

How the results depend on the processing

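With all 6 wild-type arrays as the control the called members numbered 4 in 15lox/15lox and 4 in 15lox/1638N (2 each with arrays 4 to 6), 1 in 15lox/1572T (0), 1 in 15lox/15lox against 15lox/1638N (0) and 1 in 15lox/1638N against 15lox/1572T (0). Over all probe sets that control gave 1951, 3912 and 283 calls in the first 3, against 674, 623 and 13, and 220, 697 and 157 between mutants, against 84, 451 and 77. For the other alternatives below, the calls over all probe sets are not given. A change in their counts of members or list genes therefore cannot be told from a change in calls at large. Array weights gave 4 members in 15lox/1638N, 1 in 15lox/1572T, 1 in 15lox/15lox against 15lox/1638N and 1 in 15lox/1638N against 15lox/1572T. The options trend and robust gave 1 in 15lox/15lox against 15lox/1638N. The filter on low levels, which removed Pou2af1 itself, left 1 in 15lox/15lox against wild type and 1 against 15lox/1572T, a fit of only the 2 groups left 1 against 15lox/1572T, and array type as a covariate left 0 in 15lox/15lox against wild type. With each array left out the counts ran from 1 to 2 in 15lox/15lox, 0 to 3 in 15lox/1638N and 0 to 0 in 15lox/1572T, and between mutants from 0 to 1, 1 to 2 and 0 to 0. The list genes called against wild type numbered 10, 11 and 3 in 15lox/15lox, 15lox/1638N and 15lox/1572T. Recounted in the alternative fits, a step chosen after seeing the data, they were 22, 30 and 7 with all 6 wild-type arrays, 23 in 15lox/1638N and 5 in 15lox/1572T with array weights, 7 in 15lox/1638N with array type as a covariate, 1 in 15lox/1572T in a fit of only the 2 groups, and 7 to 12, 6 to 12 and 2 to 3 with each array left out (in 15lox/1638N, 7 when its array 1 or wild-type array 4 or 5 was left out and 6 when its array 2 was). Single members gained a call under some alternatives, among them Vpreb1 in 15lox/15lox and Cd79b in 15lox/1638N with all 6 wild-type arrays (adjusted p = 0.0339 and 0.00574). No called member changed direction in these fits. The replicate number as a random block (consensus correlation 0.080) left the counts at 2, 2 and 0 against wild type; as a fixed block among the mutants it left 1 in 15lox/15lox against 15lox/1572T. Deviations of same-numbered mutant arrays correlated at -0.07 to 0.38, so the numbers were not taken to pair the samples. The causes of these changes were not tested. Levels within the range of Y-linked genes on female-type arrays limit what can be seen for Pax5, most probe sets of Ebf1 and Ighm, and the low side of each fold.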

Other observations

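The wild-type arrays 1 to 3, which enter only the fits with all 6 wild-type arrays, read 6.31, 6.83 and 7.22 for Ebf1 1416301_a_at, 4.32, 4.17 and 4.38 for Pou2af1, and 8.998, 9.092 and 9.024 for Vpreb1. For Cd79b they read 11.52, 11.49 and 11.52, and for Ighm 1427329_a_at 11.95, 11.86 and 11.52. Their mean differed from that of arrays 4 to 6 by at most 0.08 at the 26 member probe sets, and by under 0.05 at 24 of them. Blnk read 5.93, 5.84 and 7.06 on these arrays, a wider span than on arrays 4 to 6 with nearly the same mean.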
